A study of Mus musculus with 16 samples.

Results

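The genes described here are potassium channel genes, accessory subunits among them, that lie outside the chromosome 16 segment carried in 3 copies by the Dp16 mouse. They were taken by name: of 94 protein-coding genes in the count table whose symbol starts with Kcn, 14 were left out. These were Kcnj6, Kcnj15, Kcne1 and Kcne2 of the triplicated segment, Kcnj10 and Kcnj13, and the Kcnip and Kcnmb genes, whose products regulate channels without forming a pore. That left 80 genes of the 55385 in the table. Accessory subunits of the Kv beta and KCNE families were kept, so not every gene described forms a pore. Counts were high enough to test 71 of the 80, and the other 9 are listed with their levels.

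RNA with poly-A tails from the hippocampus of mice aged 5 months was sequenced in 16 libraries, 4 for each of 4 genotypes. Wild-type mice were labelled C57BL/6J. The labels give no background strain for the other genotypes. Dp16 mice carry an extra copy of a segment of mouse chromosome 16 that corresponds to much of the human chromosome trisomic in Down syndrome. The second model, 5xFAD, carries human transgenes, APP among them, with mutations of familial Alzheimer disease, driven in neurons by a Thy1 promoter, so its amyloid is overproduced rather than made from the mouse gene. The last genotype, 5xFAD-Dp16, carries both. Wild-type, Dp16 and 5xFAD had 2 males and 2 females each, while 5xFAD-Dp16 had 4 males and no female. Nothing in the labels states 1 mouse per library, so the p-values reflect only the spread among these libraries, part of which may be technical.

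Potassium channels let potassium leave or enter a cell and so set its resting voltage, the length of its spikes and how fast it can fire again. Voltage-gated channels (Kv, KCNQ and EAG families) open when a neuron depolarises, inward rectifiers hold the resting voltage, two-pore-domain channels carry a steady leak, and calcium-activated channels couple calcium entry to repolarisation. In the hippocampus most of them act in neurons, while a few, such as Kcnk13 (THIK-1), Kcnk6 (TWIK2), Kcnj2 (Kir2.1), Kcna3 (Kv1.3) and Kcnn4, are also known from microglia or other immune cells.

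The total per library ran from 15838097 to 25037769 counts. The labels were checked on 2 genes of the triplicated segment. Levels are in CPM, the counts scaled by library total after correction for library composition (TMM). App had a mean of 3139 ± 95.8 CPM in Dp16 against 2033 ± 236 in wild-type (SD, n = 4), with no overlap of libraries, and of 2961 ± 269 in 5xFAD-Dp16 against 1827 ± 122 in 5xFAD. Kcnj6, a channel gene of that segment and the partner of several genes below, had 61.4 ± 14.4 CPM in Dp16 against 32.6 ± 15.01 in wild-type and 51.6 ± 19.1 in 5xFAD-Dp16 against 26.9 ± 9.23 in 5xFAD. Excitatory neuron markers were present in all libraries, with a summed level of 3158 to 8903 CPM over 6 genes. Midbrain and hypothalamus markers (19 listed, 10 tested) summed to 6.76 to 14.8 CPM in 12 libraries and stood higher in the other 4, at 401 CPM in 5xFAD replicate 2, 259 CPM in wild-type replicate 4, 98.3 CPM in 5xFAD-Dp16 replicate 3 and 25.8 CPM in 5xFAD replicate 4. These 4 libraries also had the lowest scores of the excitatory neuron markers, from -1.32 to -0.53 as mean centred log2 CPM against 0.01 to 0.53 in the others. Of the 4, 5xFAD replicate 4 had the lowest midbrain score, 0.27. It had the highest sum of 13 thalamus markers, 702 CPM against 178 to 427 in the other libraries. The 4 libraries thus need not share the same extra tissue, which was not tested. Of the 19 midbrain markers, 0 to 2 were at 0 throughout a genotype. The transgenes were present in 3 of these 4 libraries, so values that move without them are given beside the results.

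All 80 genes were located in the GRCm38 annotation, on 18 chromosomes and none on chromosome 16. Small clusters of neighbours within 200 kb held 12 of them, such as Kcna3, Kcna2 and Kcna10 at chr3:107036169-107195721, Kcna5, Kcna1 and Kcna6 at chr6:126532551-126740674, and Kcnj16 and Kcnj2 at chr11:110968033-111076821. The exons of 23 genes overlap those of another gene. No source used here gives the strand setting of the counting, which leaves the assignment of reads in such overlaps uncertain.

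Of the 3 genes called at an adjusted p below 0.05 in any comparison, Kcnj2 and Kcnk2 had promoters in the RefSeq table (GRCm38.p6), and the 250 bases before the start site are shown as the context of those calls. For Kcnk2 the start site farthest upstream was taken, on the minus strand at chr1:189402274-189402523, and Kcnj2 lies on the plus strand at chr11:111065914-111066163. Capitals mark matches, searched on both strands, to 3 motifs that do not overlap each other. The first is the E-box, CACGTG, which reads the same on either strand. The second is the GC box, searched as GGGCGG and its reverse complement. The third is GAGGAA, a core that PU.1, a factor of myeloid cells, can bind, which appears in capitals as TTCCTC where it lies on the opposite strand.
Kcnj2: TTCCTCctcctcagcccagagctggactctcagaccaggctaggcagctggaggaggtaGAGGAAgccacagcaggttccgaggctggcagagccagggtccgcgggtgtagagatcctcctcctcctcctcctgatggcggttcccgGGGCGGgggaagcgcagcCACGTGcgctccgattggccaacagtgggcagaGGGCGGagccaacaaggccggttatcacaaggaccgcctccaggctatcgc
Kcnk2: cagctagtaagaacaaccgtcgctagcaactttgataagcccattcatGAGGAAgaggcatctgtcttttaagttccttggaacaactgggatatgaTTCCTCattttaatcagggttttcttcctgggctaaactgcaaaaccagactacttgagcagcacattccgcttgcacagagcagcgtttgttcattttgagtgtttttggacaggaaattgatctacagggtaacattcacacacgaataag
The Kcnj2 promoter held 1 CACGTG, 2 GGGCGG and 2 GAGGAA matches, and the Kcnk2 window shown held 2 GAGGAA matches and none of the others. The table holds 3 further Kcnk2 start sites, not printed, whose windows held 0 CACGTG, 0 GAGGAA and, in 1 of them, 1 GGGCGG match. Over all 32851 promoters of the table, windows of the same length held CACGTG in 6.02%, GGGCGG in 32.7% and GAGGAA in 23.3%. Among 74 promoters of 56 potassium channel genes the shares were 8.11%, 47.3% and 29.7%. The median share of G and C letters was 58.8% in these windows and 52.4% in all windows. The motif shares were not adjusted for it. A match describes letters in the window and shows no binding.

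Levels differed widely between family members when compared per length, in RPKM (the deposited values, scaled by gene length and library total). Over the 16 libraries 27 genes had a mean of at least 10 RPKM, 32 were between 1 and 10, and 21 were below 1. Kcnab2, a beta subunit that helps bring Kv1 channels to the axon, was highest at 151 ± 30.6 RPKM (SD over 16 libraries). Kcnk1, a two-pore-domain leak channel, was at 35.4 ± 3.76 RPKM, far below Kcnab2 relative to either spread.

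**Figure D1:**
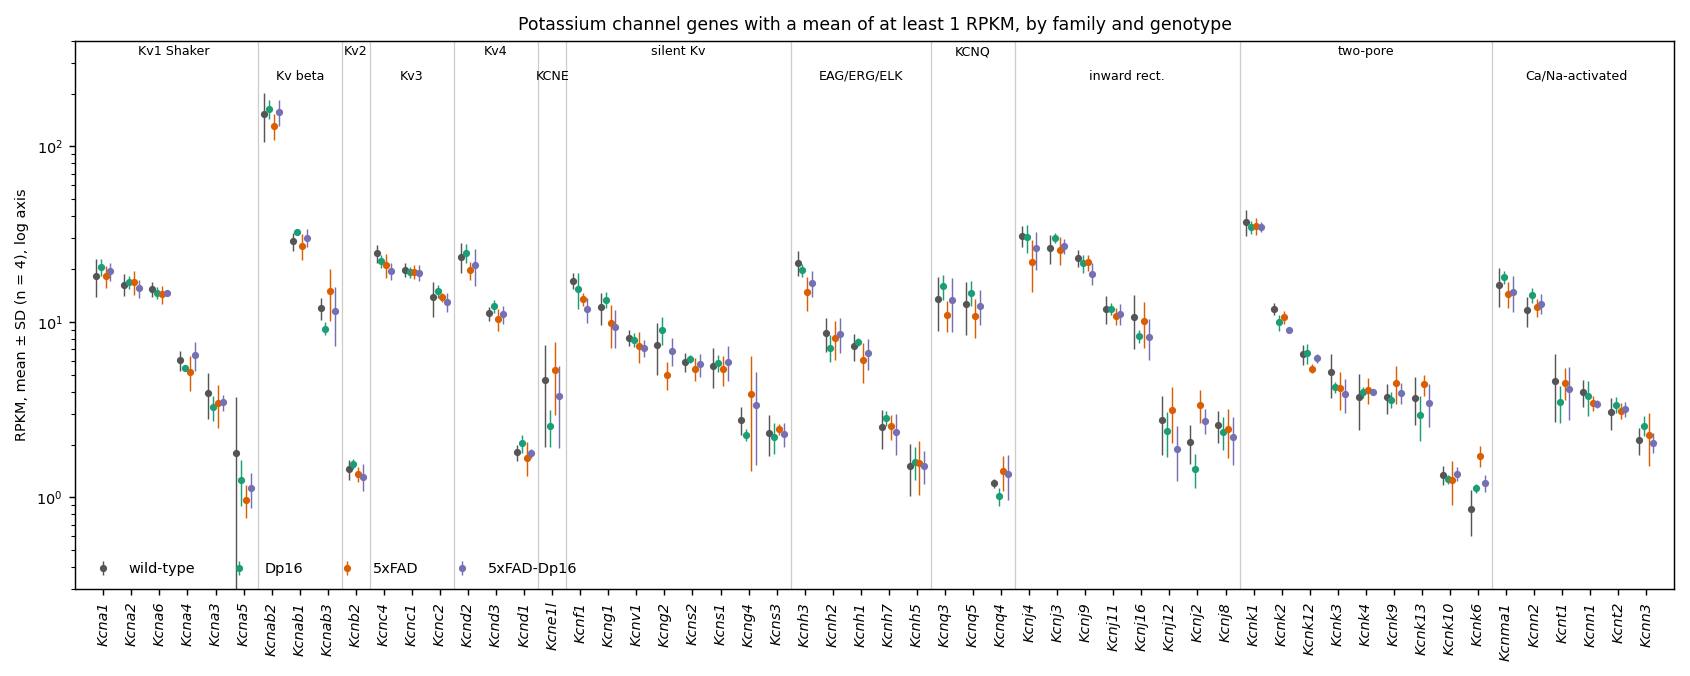
Level of 56 of the 59 genes with a mean of at least 1 RPKM, by family, on a log axis; points are genotype means and bars the SD over 4 libraries. Kcnab2 stands above all others, and the 4 genotypes of most genes lie within each other's bars.

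Among Kv1 genes, Kcna1 led at 19.1 ± 2.87 RPKM. Kcnd2 (Kv4.2), which carries the dendritic A-type current, was at 22.3 ± 4.05. In the EAG group Kcnh3 led at 18.2 ± 3.79 RPKM, and among silent Kv subunits, which make channels only together with Kv2, Kcnf1 led at 14.5 ± 2.93. Of the inward rectifiers Kcnj4 (Kir2.3) at 27.4 ± 6.49 and Kcnj3 (GIRK1) at 27.3 ± 3.76 did not differ beyond their spread. The calcium-activated BK channel gene Kcnma1 was at 15.9 ± 3.04 RPKM and the SK2 gene Kcnn2 at 12.6 ± 1.81.

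At the low end, Kcnj1, Kcnk16 and Kcnk18 had no count in any library, and Kcna10, Kcna7, Kcne3, Kcnk7, Kcnk15 and Kcnv2 had 2 to 74 counts over all 16 libraries. None of these 9 was tested. The genes known from immune cells were low in this tissue: Kcnk13, Kcna3, Kcnj2 and Kcnk6 lay between 1 and 4 RPKM as means over all libraries, and Kcnn4 was at 0.173 RPKM.

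Summed over all 80 genes, the level was highest in Dp16 with 4857 ± 474 CPM, followed by wild-type with 4551 ± 975, 5xFAD-Dp16 with 4351 ± 725 and 5xFAD with 3957 ± 396 (SD, n = 4). The ranges of the 4 genotypes overlapped, and the lowest library of all was wild-type replicate 4 at 3203 CPM, one of the 4 high in midbrain markers.

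The comparisons of genotypes were fitted in 1 model of all 16 libraries with a term for sex (edgeR quasi-likelihood test, Benjamini-Hochberg adjustment over all 16684 tested genes). Because they share the wild-type, Dp16 or 5xFAD libraries, the comparisons are not independent of each other. In all, 3 of the 71 genes passed in at least 1 comparison, each in a different one. The share of all tested genes that passed in at least 1 comparison is not given. This count therefore does not show whether channel genes passed more or less often than other genes. Shares of all tested genes are given below for each comparison separately. Kcnk6 rose in 5xFAD, Kcnj2 rose with the amyloid transgenes when both chromosome states were averaged, and Kcnk2 fell in 5xFAD-Dp16.

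The first comparison asks what the amyloid transgenes change on a normal chromosome set. In 5xFAD against wild-type, 1 of 71 genes passed, Kcnk6, against 0.971% of all tested genes. Without adjustment 9 of 71 had a p below 0.05, 2 with higher and 7 with lower levels, against 8.85% of all tested genes.

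Kcnk6 (TWIK2, chr7:29221926-29232515, minus strand) encodes a two-pore-domain channel known for potassium efflux in macrophages. It was at 2.48, 3.06, 5.03 and 3.40 CPM in the 4 wild-type libraries and at 7.48, 7.91, 6.15 and 5.97 in 5xFAD. The Dp16 libraries had 4.44, 4.99, 5.02 and 4.52 CPM and those of 5xFAD-Dp16 had 5.77, 4.82, 4.51 and 4.68. Every 5xFAD library was above every library of the other 3 genotypes. In 5xFAD it was 1.96-fold higher than in wild-type (log2 fold change 0.97 ± 0.198 SE, edgeR adjusted p = 0.0224). When the 4 libraries high in midbrain markers were left out, the change was 0.98 and the adjusted p 0.127 in edgeR. Among the libraries of males only it was 0.67 with an adjusted p of 0.256. The call was lost without wild-type replicate 1, 2 or 4 (adjusted p of 0.0814, 0.115 and 0.0672 in edgeR) and without 5xFAD replicate 1 or 2 (0.0760 and 0.0791).

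Against wild-type, Kcnk6 in Dp16 had a log2 fold change of 0.44 ± 0.198 (unadjusted p = 0.0418, adjusted p = 0.990 in edgeR). In 5xFAD-Dp16 against Dp16 the difference was 0.06 ± 0.211. The difference between the transgene effects on the duplicated and on the normal chromosome set was -0.92 ± 0.292 on the log2 scale. This interaction had the smallest edgeR p of the 71 genes before adjustment, 0.00644, and did not pass (edgeR adjusted p = 1.00).

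Microglial markers moved with the same comparison. All 10 markers of plaque-associated microglia were higher in 5xFAD than in wild-type and 8 passed, with a median log2 fold change of 2.90. All 10 were also higher in 5xFAD-Dp16 than in Dp16, with 8 passing and a median of 2.74. Kcnk6 did not pass in that comparison. In Dp16 against wild-type 3 of the markers were higher and 7 lower, with a median of -0.06. The 10 markers summed to 327 to 395 CPM in wild-type, 315 to 376 in Dp16, 817 to 1283 in 5xFAD and 730 to 902 in 5xFAD-Dp16. None of the 10 was at 0 in any group. In whole tissue, more or fewer cells of a type cannot be told apart from more or less RNA per cell. The part of microglia in the Kcnk6 result was not tested.

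**Figure D2:**
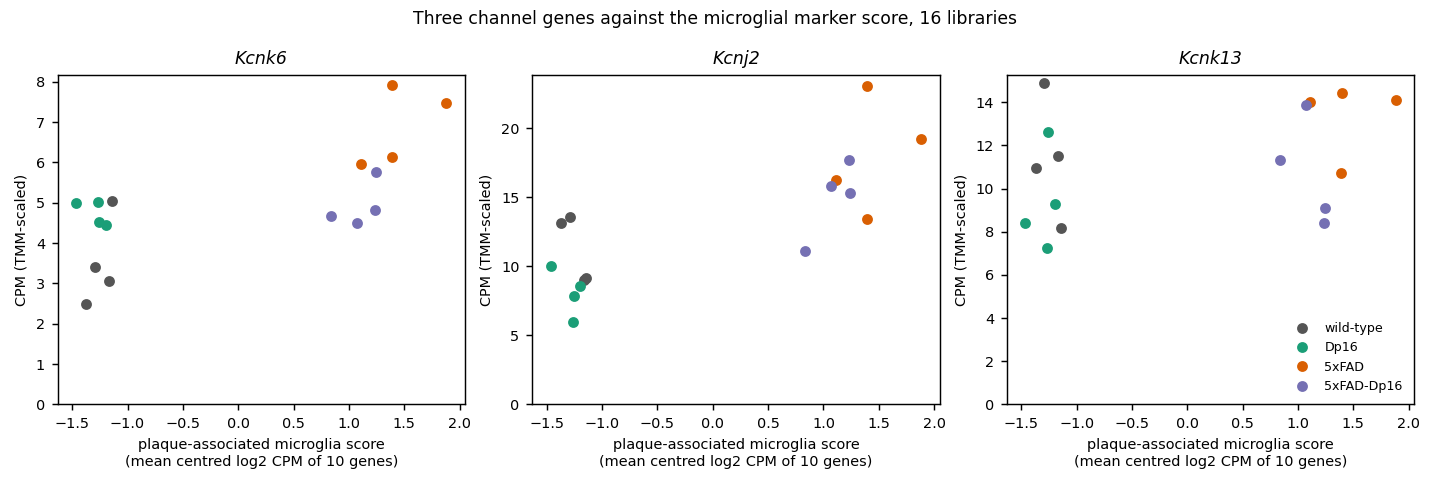
CPM of Kcnk6, Kcnj2 and Kcnk13 in each of the 16 libraries against the mean centred log2 CPM of 10 genes of plaque-associated microglia. The libraries with and without transgenes form separate clusters on the horizontal axis, so no correlation is given.

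The same question was put over all libraries by averaging the transgene effect over both chromosome states, 8 libraries against 8. Here 1 of 71 genes passed, Kcnj2, against 2.56% of all tested genes. Unadjusted p was below 0.05 in 16 of 71 genes, 3 higher and 13 lower, against 15.7% of all tested genes. No gene had libraries of the 2 sides that did not overlap, against 0.977% of all tested genes.

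Kcnj2 (Kir2.1, chr11:111066164-111076821, plus strand) encodes the classical strong inward rectifier, which holds the resting voltage of many cells. It was at 13.1, 8.99, 9.13 and 13.5 CPM in wild-type and at 8.54, 9.99, 5.95 and 7.85 in Dp16. With the transgenes it was at 19.2, 13.4, 23.0 and 16.2 CPM in 5xFAD and at 15.3, 17.7, 15.8 and 11.1 in 5xFAD-Dp16. The 2 sides overlapped only through wild-type replicates 1 and 4, 5xFAD replicate 2 and 5xFAD-Dp16 replicate 4. The averaged effect was 1.70-fold (log2 fold change 0.76 ± 0.156 SE, edgeR adjusted p = 0.0121).

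Kcnj2 had a log2 fold change of 0.68 ± 0.208 in 5xFAD against wild-type (adjusted p = 0.230) and of 0.85 ± 0.230 in 5xFAD-Dp16 against Dp16 (adjusted p = 0.138), neither of which passed in edgeR. The interaction was 0.17 ± 0.306 (edgeR adjusted p = 1.00). The averaged effect was larger, 0.93, when the 4 libraries high in midbrain markers were left out (edgeR adjusted p = 0.00289). Leaving out any 1 library kept the call, with edgeR adjusted p between 0.00637 and 0.0460. Among males only it was 0.85 with an adjusted p of 0.0865. Here too the microglial markers were higher (10 of 10 plaque-associated markers, 8 of which passed, median 2.82), and their part was not tested.

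**Figure D3:**
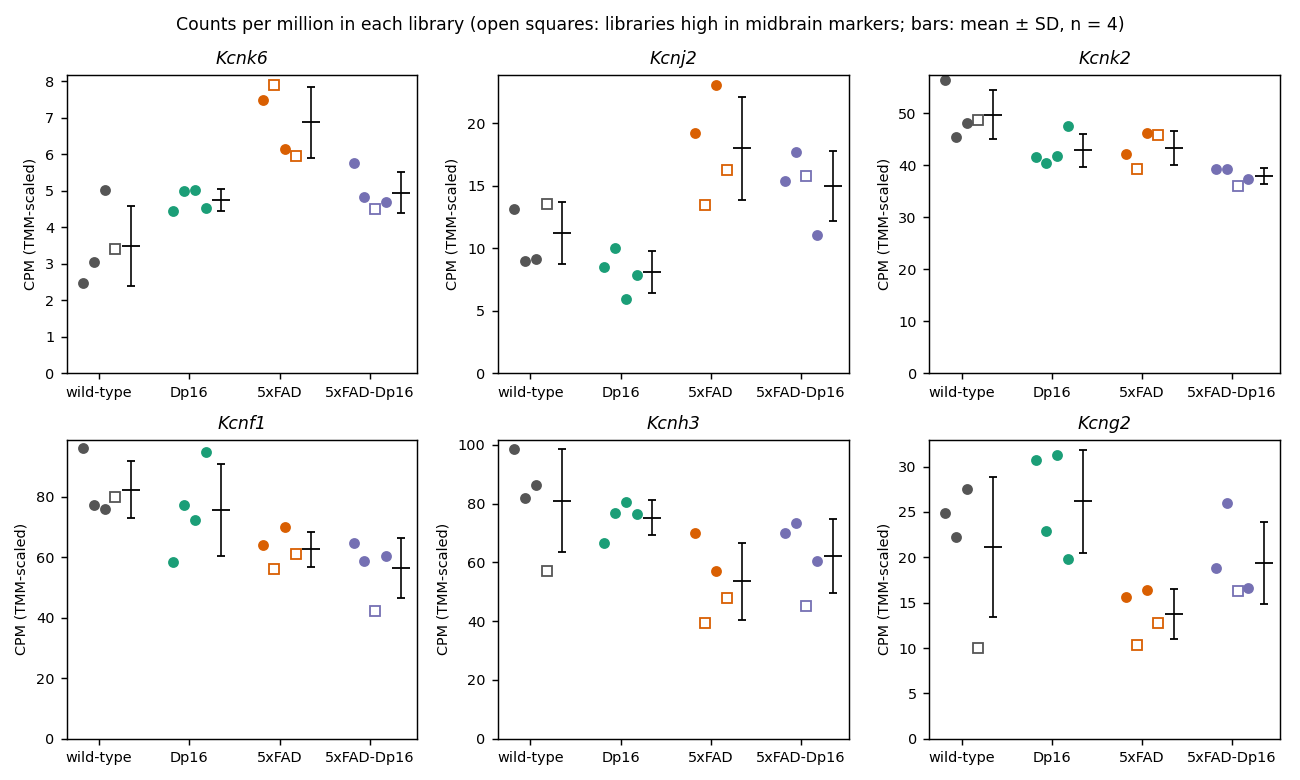
CPM in each library for 6 genes, by genotype; open squares are the 4 libraries high in midbrain markers and the bars show the mean and SD of 4 libraries. Kcnk6 is highest in 5xFAD, Kcnj2 is higher in both genotypes with the transgenes, and Kcnk2 is lowest in 5xFAD-Dp16.

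Of the other genes known from immune cells, none passed. Kcnk13, the THIK-1 channel of resting microglia, was at 10.95, 11.5, 8.19 and 14.9 CPM in the wild-type libraries, 9.27, 8.38, 7.26 and 12.6 in those of Dp16, 14.1, 14.4, 10.7 and 14.003 in those of 5xFAD and 9.11, 8.41, 13.9 and 11.3 in 5xFAD-Dp16. All genotypes overlapped, and the averaged transgene effect was 0.32 ± 0.131 (edgeR adjusted p = 0.269). Kcna3 (Kv1.3) had an averaged effect of -0.07 ± 0.153 and Kcnn4 of 0.54 ± 0.563 on the log2 scale. The highest Kcnn4 library reached 1.06 CPM, so its level is near the limit of what this depth resolves.

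Most of the 71 genes had lower values with the transgenes, without passing. In the averaged comparison 52 of 71 genes had a negative log2 fold change and 19 a positive one, while 54.8% of all tested genes were positive. The median of the 71 was -0.16 and that of all tested genes 0.02. By family, all 6 tested Kv1 genes, both Kv2 genes, all 4 Kv3 genes and all 3 Kv4 genes were negative, as were 7 of 9 silent Kv genes, 4 of 5 KCNQ genes, 7 of 10 inward rectifiers and 6 of 8 calcium- or sodium-activated channel genes. The EAG group had 3 positive and 5 negative genes, two-pore-domain genes 4 and 6, and Kv beta genes 1 and 2. Both tested KCNE genes were positive, as was Kcnrg. These counts describe direction only, since 1 member of the 71 passed, and genes of 1 library share its tissue content.

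**Figure D4:**
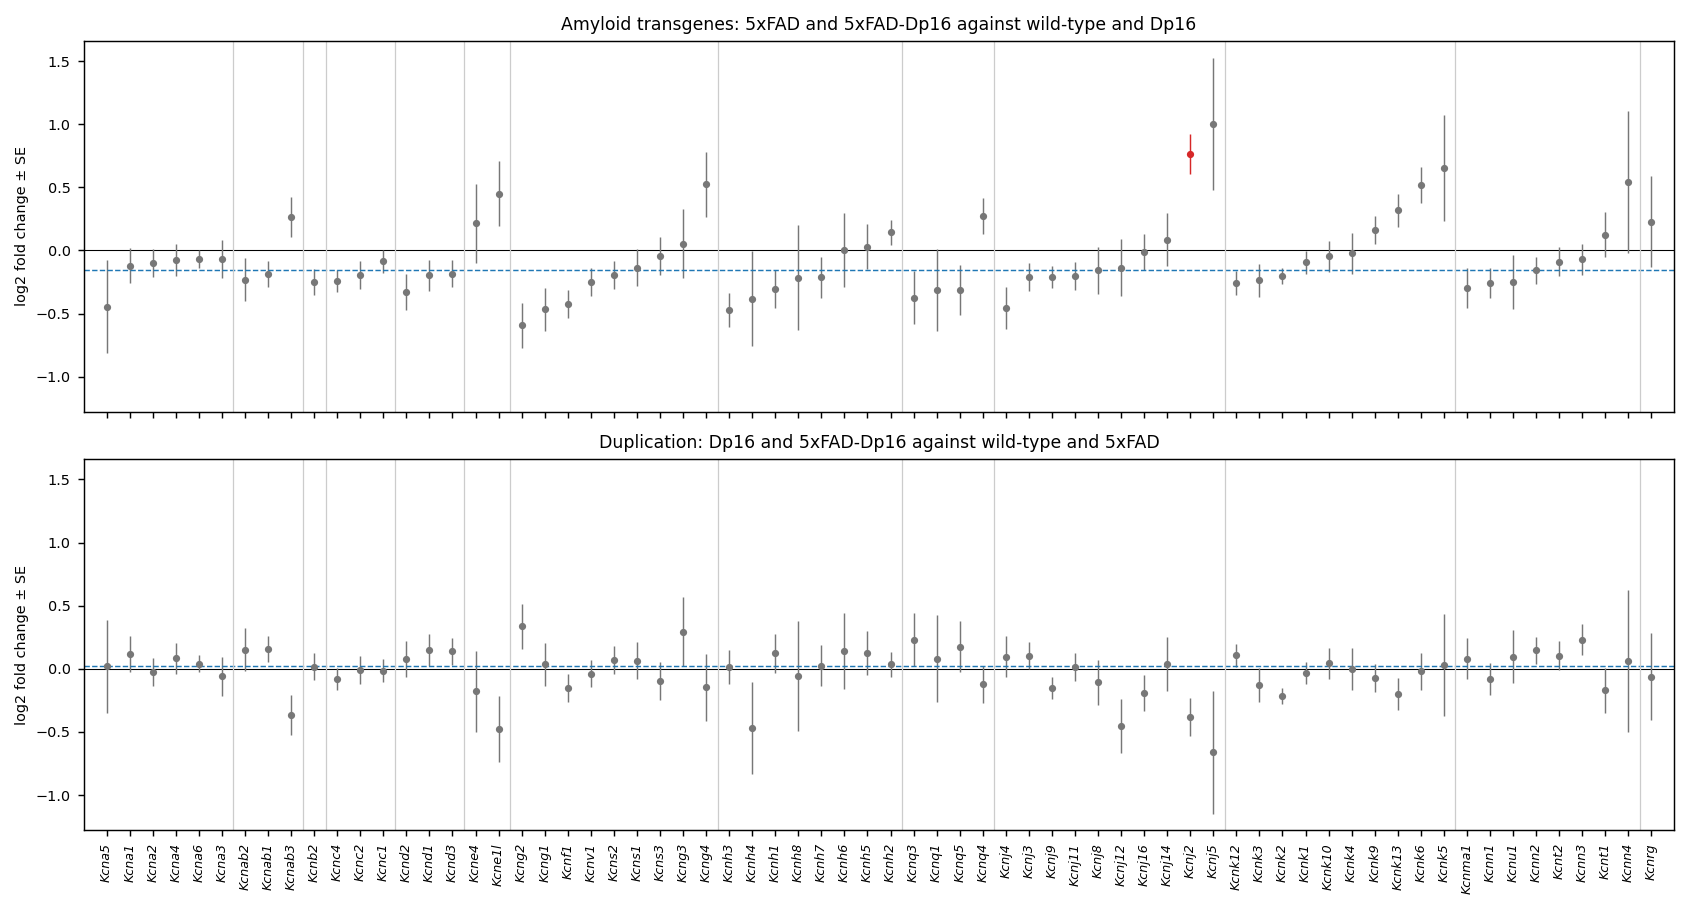
Log2 fold change and SE of 68 of the 71 tested genes, ordered by family, for the amyloid transgenes (top) and the duplication (bottom), each averaged over 8 against 8 libraries; the dashed line is the median of the 71 and red marks adjusted p below 0.05. The dashed line lies at -0.16 in the top panel and at 0.02 in the bottom panel, and Kcnj2 is the 1 red point.

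Kcnf1 (Kv5.1, chr12:17172100-17176888, minus strand), a silent subunit that modifies Kv2 channels, came closest on the negative side. It had 96.2, 77.3, 75.9 and 80.01 CPM in the wild-type libraries, 58.3, 77.3, 72.3 and 94.9 in those of Dp16, 64.02, 56.03, 69.9 and 60.99 in those of 5xFAD and 64.7, 58.9, 42.1 and 60.5 in those of 5xFAD-Dp16. Both genotypes with the transgenes lay wholly below wild-type, but Dp16 overlapped them. The averaged effect was -0.43 ± 0.111 with an edgeR adjusted p of 0.0556. DESeq2 called it, with an adjusted value of 0.0136. With the 4 libraries high in midbrain markers left out, the effect was -0.31 and the edgeR adjusted p 0.207.

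Kcnh3 (Kv12.2, chr15:99224861-99242817, plus strand), an EAG-family channel that restrains the excitability of pyramidal cells, was at 98.7, 81.9, 86.4 and 57.1 CPM in wild-type and 66.7, 76.9, 80.5 and 76.5 in Dp16. It was at 69.96, 39.4, 56.9 and 47.8 CPM in 5xFAD and at 70.0, 73.4, 45.0 and 60.3 in 5xFAD-Dp16. In each of wild-type, 5xFAD and 5xFAD-Dp16 the lowest library was one high in midbrain markers. The averaged effect was -0.47 ± 0.135 (edgeR adjusted p = 0.0892) and, without those libraries, -0.31 with an adjusted p of 0.0482, so that setting calls it.

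Kcng2, a second silent subunit, showed the same library pattern, with 24.9, 22.3, 27.5 and 9.96 CPM in the wild-type libraries, 30.7, 22.9, 31.3 and 19.9 in those of Dp16, 15.6, 10.4, 16.4 and 12.7 in those of 5xFAD and 18.8, 26.0, 16.3 and 16.6 in 5xFAD-Dp16. Its averaged effect was -0.59 ± 0.180 (edgeR adjusted p = 0.119). Kcng1 had -0.47 ± 0.167, with Dp16 at 57.01 ± 6.44 CPM and 5xFAD-Dp16 at 39.1 ± 9.83. Kcnj4, a Kir2.3 rectifier of forebrain neurons, had -0.46 ± 0.167, with 46.3 ± 15.6 CPM in 5xFAD against 66.9 ± 12.2 in wild-type.

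Kcnq3 and Kcnq5, subunits of the M-current that limits repetitive firing, did not pass. Kcnq3 had an averaged transgene effect of -0.37 ± 0.209 and Kcnq5 of -0.31 ± 0.196, with edgeR adjusted p of 0.390 and 0.433. Their libraries overlapped in every comparison. Kcnd2 had 99.2 ± 14.1 CPM in 5xFAD against 122 ± 29.6 in wild-type, with an averaged effect of -0.33 ± 0.143 (edgeR adjusted p = 0.286). With no filter on low counts, Kcnq3, Kcnq5, Kcnd2, Kcng1, Kcng2, Kcnj4, Kcnf1 and Kcnh3 all passed in edgeR in the averaged comparison. That setting called 1284 of 30883 genes over all, against 427 of 16684 in the main fit. The log2 fold change of Kcnh3 was -0.47 in both fits, so its call came without a larger change.

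Genes of fast-spiking interneurons had similar means. Kcnc1 (Kv3.1) ranged from 177 ± 13.4 CPM in 5xFAD to 187 ± 28.1 in wild-type. Kcnc2 (Kv3.2) ranged from 82.4 ± 14.5 CPM in 5xFAD-Dp16 to 97.1 ± 10.04 in Dp16, a pair with an unadjusted edgeR p below 0.05 and no call. For both genes the differences between genotype means were smaller than the SD in wild-type. That SD includes wild-type replicate 4, high in midbrain markers. It had the lowest wild-type level of both, 152 CPM for Kcnc1 and 56.4 CPM for Kcnc2.

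Markers of excitatory neurons moved in the same direction as these channel genes. All 6 of them had negative log2 fold changes in the averaged comparison, with a median of -0.31 and none passing, and 9 of 10 interneuron markers were negative with a median of -0.21. Other lists did not move down. Of 5 fast-spiking interneuron markers 3 were positive and 2 negative, with a median of 0.01. All 8 oligodendrocyte markers were positive, with a median of 0.33 and 0 passing. Without the 4 libraries high in midbrain markers 53 of 70 tested channel genes were negative and their median was -0.11, while all 6 excitatory neuron markers were negative with a median of -0.16. The part of neuronal content in these values of the channel genes was not tested.

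The 4 libraries high in midbrain markers were set against the others of their genotype, which is 1 against 3 libraries in wild-type and 5xFAD-Dp16 and 2 against 2 in 5xFAD. They were picked by marker level, so the differences are a description with no test. Lower levels in all 3 genotypes were found for 33 of 71 channel genes (46.5%) against 28.4% of all tested genes, and higher levels in all 3 for 18 (25.4%) against 32.9%. Kcnq3 and Kcnq5 were the most lowered, with mean differences of -0.91 and -0.82 in log2(CPM + 0.5). Kcna1, Kcnab2, Kcnma1 and Kcnn2 were also lower in all 3. Kcne1l, a KCNE-type accessory subunit, was higher in all 3, by 1.17 in wild-type, 0.55 in 5xFAD and 1.04 in 5xFAD-Dp16.

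**Figure D5:**
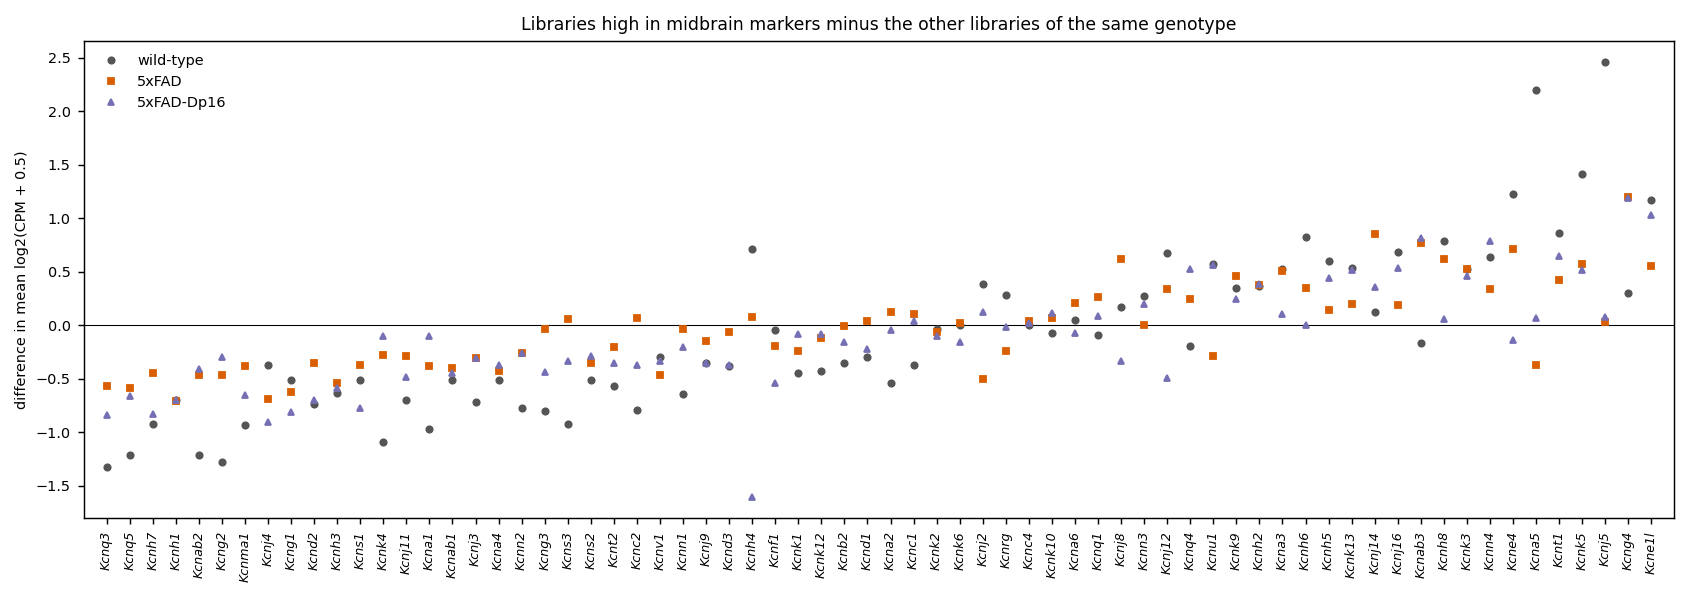
Difference in mean log2(CPM + 0.5) between the libraries high in midbrain markers and the other libraries of the same genotype, for 68 genes and 3 genotypes; genes are ordered by the mean of the 3. Kcnq3 and Kcnq5 lie lowest at the left and Kcne1l lies at the right, with all 3 points of each on the same side of 0.

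The next question is what the duplication changes in channel genes that it does not carry. In Dp16 against wild-type DESeq2 called 0 of 77 channel genes, with 48 of 30883 called over all genes. Here and below the DESeq2 totals are genes fitted. DESeq2 can give no adjusted p to genes of low counts, so its shares are not like those of edgeR. In edgeR 0 of 71 passed, against 0.0839% of all tested genes. Before adjustment p was below 0.05 in 5 genes, against 3.31% of all tested genes: Kcnk2 (log2 fold change -0.21 ± 0.0871), Kcnj5 (-1.55 ± 0.682), Kcnn2 (0.32 ± 0.144), Kcnk6 (0.44 ± 0.198) and Kcnj2 (-0.47 ± 0.211). The Kcnj5 value rested on wild-type replicate 4, which held 4.17 CPM against 0.19 to 0.48 in the other 3, and without it the change was -0.10. Replicate 4 also stood low in Kcnn2, which was at 49.7, 44.4, 51.0 and 28.0 CPM in the wild-type replicates in order. The Kcnn2 change ran from 0.19 to 0.42 when 1 library of the series was left out. Libraries did not overlap for 2 genes, Kcnab3 and Kcng4, both lower in Dp16 and chosen after their values were seen, against 2.92% of all tested genes.

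The partners of the triplicated Kcnj6 did not pass. Kcnj3 (GIRK1) had 162 ± 16.2 CPM in Dp16 against 138 ± 32.1 in wild-type and 141 ± 20.8 in 5xFAD-Dp16 against 131 ± 23.97 in 5xFAD. In Dp16 against wild-type it had a log2 fold change of 0.24 ± 0.148. Its wild-type replicates had, in order, 149, 143, 169 and 93.2 CPM, the last of them high in midbrain markers. The part of that library in the Kcnj3 change is not given. Kcnj9 (GIRK3) had 85.97 ± 7.55 CPM in Dp16 against 90.1 ± 13.5 in wild-type and 73.3 ± 10.4 in 5xFAD-Dp16 against 82.8 ± 9.19 in 5xFAD, with a change of -0.06 ± 0.122 in Dp16 against wild-type. Kcnj6 itself had 0.94 ± 0.361 in that comparison, an edgeR adjusted p of 0.990 and an unadjusted p of 0.0202.

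For the duplication averaged over both transgene states, DESeq2 called 0 of 77 channel genes, with 74 of 30883 called over all genes. In edgeR 0 of 71 passed, against 0.234% of all tested genes. Kcnj6 of the triplicated segment, at 0.87 ± 0.266, did not pass there either (edgeR adjusted p = 0.653). A missing call thus does not show that a gene was unchanged. An unadjusted p below 0.05 was found in 3 genes, all lower, against 4.6% of all tested genes. No gene had libraries of the 2 sides that did not overlap, against 0.216% of all tested genes. The 3 genes were Kcnk2 (-0.22 ± 0.0636, edgeR adjusted p = 0.523), Kcnj2 (-0.38 ± 0.153) and Kcnab3 (-0.37 ± 0.161), the last chosen after its values were seen. The median of the 71 was 0.02 and that of all tested genes -0.01.

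Kcnk2 (TREK-1, chr1:189207930-189402273, minus strand) encodes a leak channel opened by stretch, lipids and warmth that dampens neuronal firing. It was at 56.4, 45.5, 48.0 and 48.7 CPM in wild-type and at 41.6, 40.5, 41.7 and 47.5 in Dp16. In 5xFAD it was at 42.2, 39.3, 46.2 and 45.8 CPM and in 5xFAD-Dp16 at 39.2, 39.2, 35.9 and 37.3. All 4 libraries of 5xFAD-Dp16 were below every library of the other 3 genotypes, although the highest of them, at 39.2 CPM, was close to the lowest of 5xFAD, at 39.3.

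In 5xFAD-Dp16 against wild-type Kcnk2 was the 1 gene of 71 that passed, against 1.01% of all tested genes. It was 1.34-fold lower (log2 fold change -0.42 ± 0.0936 SE, edgeR adjusted p = 0.0442). The duplication alone went with -0.21 ± 0.0871 and the transgenes alone with -0.20 ± 0.0871, neither of which passed, and the interaction was -0.02 ± 0.129. The call was weak: without the 4 libraries high in midbrain markers the change was -0.37 with an adjusted p of 0.103, among males only -0.46 with 0.144, and with no filter on low counts -0.42 with 0.166. It was kept in 3 of 16 fits that left out 1 library, those without Dp16 replicate 2, Dp16 replicate 4 or 5xFAD replicate 4, and adjusted p reached 0.296 in the others. An antisense gene, A430027H14Rik, overlaps 12.2% of the exonic bases of Kcnk2.

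In this comparison 6 of 71 genes had an unadjusted p below 0.05, 1 higher and 5 lower, against 6.38% of all tested genes. Libraries did not overlap for 3 genes, against 4.38% of all tested genes: Kcnk2, Kcnf1 (-0.58 ± 0.161, edgeR adjusted p = 0.162) and Kcnc4 (-0.32 ± 0.127), all lower, the last chosen after its values were seen. The corresponding genes in 5xFAD against wild-type were Kcnk6, higher, and Kcnf1, lower, 2 of 71 against 4.53% of all tested genes.

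The remaining comparisons ask whether the duplication acts on the transgenic background and the transgenes on the duplicated one. In 5xFAD-Dp16 against 5xFAD DESeq2 called 0 of 77 channel genes, with 25 of 30883 called over all genes. In edgeR 0 of 71 passed, against 0.0539% of all tested genes. Unadjusted p was below 0.05 in 3, all lower, against 3.28%: Kcnk2 (-0.23 ± 0.0938), Kcnk6 (-0.48 ± 0.213) and Kcnj12 (-0.74 ± 0.312). Libraries did not overlap for 3 genes, Kcnk2 and Kcnk6, lower, and Kcnk12, higher and chosen after its values were seen, against 2.61% of all tested genes.

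In 5xFAD-Dp16 against Dp16 DESeq2 called 1 of 77 channel genes, Kcnj2, with 249 of 30883 called over all genes. In edgeR 0 of 71 passed, against 0.845% of all tested genes. Before adjustment p was below 0.05 in 13, of which 4 were higher and 9 lower, against 8.57% of all tested genes. The smallest were those of Kcnj2, Kcnk5 (1.87 ± 0.641), Kcnf1 (-0.46 ± 0.162) and Kcnh2 (0.40 ± 0.148). Kcnk5 was at 0.502 ± 0.340 CPM in Dp16 and 0.877 ± 0.476 in 5xFAD-Dp16, below 1 CPM in both, and the fitted value is adjusted for sex. Libraries did not overlap for 3 genes, against 5.76% of all tested genes: Kcnj2, higher, and Kcng1 and Kcnk2, lower.

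DESeq2 called the interaction for 0 of 77 channel genes, with 5 of 30883 called over all genes. In edgeR it passed for 0 of 71, against 0% of all tested genes. An unadjusted p below 0.05 was found in 3 genes, Kcnk6, Kcnk5 and Kcnh2, against 1.99% of all tested genes. With males only in 5xFAD-Dp16, the interaction and all comparisons with that genotype carry over a difference between the sexes estimated in the remaining genotypes.

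Other genes of known roles did not pass in any comparison. Kcnma1 passed in the averaged transgene comparison with no filter on low counts, where 1284 of 30883 genes passed. The pores of ATP-sensitive channels, Kcnj11 and Kcnj8, were at 37.6 ± 8.15 and 6.58 ± 1.39 CPM in wild-type and at 33.1 ± 4.19 and 6.01 ± 1.73 in 5xFAD. The BK gene Kcnma1 ranged from 183 ± 34.05 CPM in 5xFAD to 239 ± 29.1 in Dp16, with 212 ± 62.9 in wild-type. Kcnk1 ranged from 76.4 ± 9.57 CPM in 5xFAD to 83.2 ± 14.9 in wild-type. Within each of these 4 genes the means given differed by less than the SD in wild-type. Kcnj11 was at 43.3, 41.1, 40.5 and 25.5 CPM in the wild-type replicates in order, and Kcnma1 at 258, 205, 259 and 125. The last value of each is from replicate 4, high in midbrain markers, which widened that SD. A gap below the SD thus does not show that these genes were unchanged.

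Genes whose products assemble with these channels or act beside them were counted from a list of 23, among them Kcnip and Kcnmb subunits, Dpp6, Dpp10 and the Hcn genes. Of these 20 were tested and 0 passed in edgeR in any of the 8 comparisons. In the averaged transgene comparison 7 were positive and 13 negative with a median of -0.12. There 54.8% of all tested genes were positive. Unadjusted p was below 0.05 for 4 of the 20 genes, all lower, against 15.7% of all tested genes: Kcnmb4, a BK beta subunit (-0.31 ± 0.102), Amigo1, a partner of Kv2 channels (-0.24 ± 0.0812), Cntnap2, which gathers Kv1 channels beside the node of the axon (-0.16 ± 0.0730), and Kcnip3 (-0.16 ± 0.0749). They were named after their values were seen.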

How the data were processed

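Counts of reads per gene and RPKM values, which scale counts by gene length and library total, were used as deposited. Per the submitters' processing notes, the tools included HTSeq 0.6.1, HISAT2 2.1.0 and SAMtools 1.5, and the build was GRCm38. The deposited RPKM of 27505 genes implied a single length per gene within a relative tolerance of 1e-06, so they rescale the counts. The low-count filter of edgeR (filterByExpr, by genotype) left 16684 of 55385. Libraries were scaled by trimmed means (TMM). A robust quasi-likelihood model (edgeR version 4.0.16, R version 4.3.3) with terms for genotype and sex gave 8 comparisons over 16 libraries, called at a Benjamini-Hochberg adjusted p below 0.05. Each SE was derived from the fold change and its test statistic. The steps were tested on simulated data. Library totals of 15838097 to 25037769 counts limit the precision of genes of a few counts.

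Alternatives were DESeq2 version 1.42.0, RLE scaling, no filter, no sex term, males only, the replicate number as a block, each library left out, and the 4 libraries highest in midbrain markers left out. Marker scores are mean centred log2(CPM + 0.5). The genes described and the gene lists were chosen with earlier results of these data known. Named genes are those that passed, the 2 of smallest p in each direction per comparison, the highest of each family, the gene of widest spread between libraries, and genes of known roles fixed by name, and others are marked where named. Some items are not reported here.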

Additional observations from a re-analysis of the deposited data

Results flagged for a closer look

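Among 39 named genes in 4 genotypes, 156 groups of 4 libraries were examined for a library far from the other 3, and 11 were found. Chance alone gives about 1 in 20 groups. The 39 genes include Kcnj5, named for its wide spread between libraries, and genes of 1 library share its tissue content. The count is therefore a description and no test. Wild-type replicate 4, one of the 4 libraries high in midbrain markers, stood apart for 5 genes. It was low in Kcna1 at 47.4 CPM against 89.0 to 96.1 and in Kcnj11 at 25.5 CPM against 40.5 to 43.3. It was high in Kcne1l at 12.4 CPM against 4.50 to 5.65, in Kcnj5 at 4.17 against 0.195 to 0.480 and in Kcnk5 at 2.54 against 0.490 to 0.8293.

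5xFAD replicate 2, the library highest in those markers, was high in Kcne1l at 12.98 CPM against 5.75 to 6.48 and in Kcnk5 at 1.95 against 0.247 to 0.503. In 5xFAD-Dp16 replicate 3, also high in those markers, Kcnn4 was high at 0.760 CPM against 0.210 to 0.256. The part of tissue content in these values was not tested. Dp16 replicate 4 was low in Kcna1 at 74.0 CPM against 99.3 to 99.9 and in Kcns2, a silent Kv subunit, at 31.5 against 36.4 to 37.2. Kcnk13 was low in 5xFAD replicate 3 at 10.7 CPM against 14.003 to 14.4, a library not among the 4 high in midbrain markers.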

How the results depend on the processing

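DESeq2 and no filter each fitted 77 channel genes among 30883 genes, against 71 among 16684 in the main fit. Males only fitted 70 among 17023, and leaving out the 4 libraries high in midbrain markers 70 among 17187. The calls over all genes are given below, for fits with 1 library left out only in examples. The number of channel genes called was 0 under every alternative for Dp16 against wild-type, 5xFAD-Dp16 against 5xFAD, the interaction and the averaged duplication. In the averaged transgene comparison 1 was called, and 5 with DESeq2 (Kcnf1, Kcng2, Kcnh3, Kcnj2 and Kcnk6), 14 with no filter (among them Kcnd2, Kcnf1, Kcng1, Kcng2, Kcng4, Kcnh1, Kcnh3, Kcnj2, Kcnj4, Kcnma1, Kcnq3 and Kcnq5), 0 in males only, 2 with the replicate block (Kcnf1 and Kcnj2), 3 without the 4 libraries high in midbrain markers (Kcnh3, Kcnj2 and Kcnk3) and 1 to 4 with 1 library left out. In 5xFAD against wild-type the number was 5 with no filter, 0 in males only and 0 to 1 with 1 library left out, and without the 4 libraries the 1 gene called was Kcnj2 in place of Kcnk6. In 5xFAD-Dp16 against wild-type it was 0 in males only and without the 4 libraries and 0 to 1 with 1 library left out. In 5xFAD-Dp16 against Dp16, where 0 were called, DESeq2 called 1 and no filter 5. The cause was not tested, except that males only leaves 10 libraries.

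Some values near 0 changed sign. The Kcnj2 interaction was -0.26 without the 4 libraries and -0.0175 to 0.36 with 1 library left out. That of Kcnk2 was 0.0194 with no sex term, 0.0766 in males only and -0.0735 to 0.0308 with 1 left out. Kcnk6 in 5xFAD-Dp16 against Dp16 was -0.0271 in males only and -0.0263 to 0.13 with 1 left out, and its averaged duplication effect was 0.0726 in males only, 0.0153 with the replicate block and -0.11 to 0.16 with 1 left out.

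Replicate numbers did not pair the samples: deviations of libraries with the same number in different genotypes correlated from -0.42 to 0.42 (median 0.05, 24 pairs). Over all genes, calls in the averaged transgene comparison rose from 427 of 16684 to 655 of 30883 with DESeq2 and 1284 of 30883 with no filter. They fell to 169 of 17023 in males only. With the replicate block they were 480 of 16684, and without the 4 libraries high in midbrain markers 490 of 17187.

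Over all genes, calls with DESeq2, with no filter and in males only were 279, 398 and 44 against 162 in 5xFAD against wild-type, 254, 355 and 61 against 169 in 5xFAD-Dp16 against wild-type, and 249, 620 and 49 against 141 in 5xFAD-Dp16 against Dp16. They were 48, 210 and 0 against 14 in Dp16 against wild-type (39 without the 4 libraries), 25, 75 and 0 against 9 in 5xFAD-Dp16 against 5xFAD (17 with no sex term, 0 with the replicate block) and 74, 179 and 11 against 39 for the averaged duplication. The interaction, with 0 calls, had 5 with DESeq2 and 128 with no filter. Without the 4 libraries high in midbrain markers, 180 of 17187 genes were called in 5xFAD against wild-type. There were 231 in 5xFAD-Dp16 against wild-type and 168 in 5xFAD-Dp16 against Dp16. In the averaged transgene comparison 305 of 17027 genes were called without wild-type replicate 1. Without wild-type replicate 4 it was 519 of 16923, with 4 channel genes called.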
